A study of Mus musculus with 6 samples.

Results

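The 10 genes described here are S1pr1, S1pr2, S1pr3, S1pr4, Cnr2, Gnai2, Gna13, Arhgef1, Rgs1 and Rgs2, chosen by name from the 55487 genes of a bulk RNA-sequencing table of mouse marginal zone (MZ) B cells. They encode receptors for sphingosine 1-phosphate (S1P) and for endocannabinoids, and the G proteins and regulators that act below them. Each name was found once in the table, and 9 of the 10 had enough counts to be tested, with Rgs1 too low. The cells came from 14-week-old mice and were taken from B cells left after negative selection, then sorted by flow cytometry. There were 3 libraries from CD55KO mice, which lack CD55, an inhibitor of complement activation on cell surfaces, and 3 libraries from WT mice of the C57BL/6 strain. The design of the CD55KO allele and its strain background are not described here. No label tells if libraries of 1 genotype are from different mice, so the p-values rest on the spread among these 6 libraries, and that spread could be technical.

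MZ B cells sit at the edge of the white pulp of the spleen, where blood flows past them, and shuttle between that edge and the follicle. S1P is abundant in blood and scarce inside the follicle. The receptor S1PR1 couples to Gi proteins and draws the cells towards S1P, against the pull of the follicular chemokine CXCL13. S1PR3 and the cannabinoid receptor CB2, encoded by Cnr2, are further receptors of MZ B cells in mice, and CB2 helps to hold these cells in the marginal zone. S1PR2 couples mainly to G13, which acts through the exchange factor ARHGEF1 and limits migration, a brake best known from germinal centre B cells. RGS proteins speed up GTP hydrolysis by the G protein alpha subunit and so end signals of G protein-coupled receptors.

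None of the 9 tested genes was called between CD55KO and WT MZ B cells. A gene was called where its p in edgeR's quasi-likelihood test stayed under 0.05 after Benjamini-Hochberg adjustment over all 13794 genes tested. Over all of these, 55 genes passed, or 0.399%. In CD55KO, 19 of them (0.138%) were higher and 36 (0.261%) were lower. DESeq2 and limma-voom also called 0 of the 9. By unadjusted p, 1 of the 9 lay under 0.05, against 8.60% of all tested genes. The log2 fold changes of CD55KO against WT were positive for 4 and negative for 5 genes, with a median of -0.01, and the median over all tested genes was 0.001. The largest fold changes were those of S1pr2, a low transcript whose libraries overlapped between genotypes, and of Rgs2, whose libraries did not overlap.

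**Figure D1:**
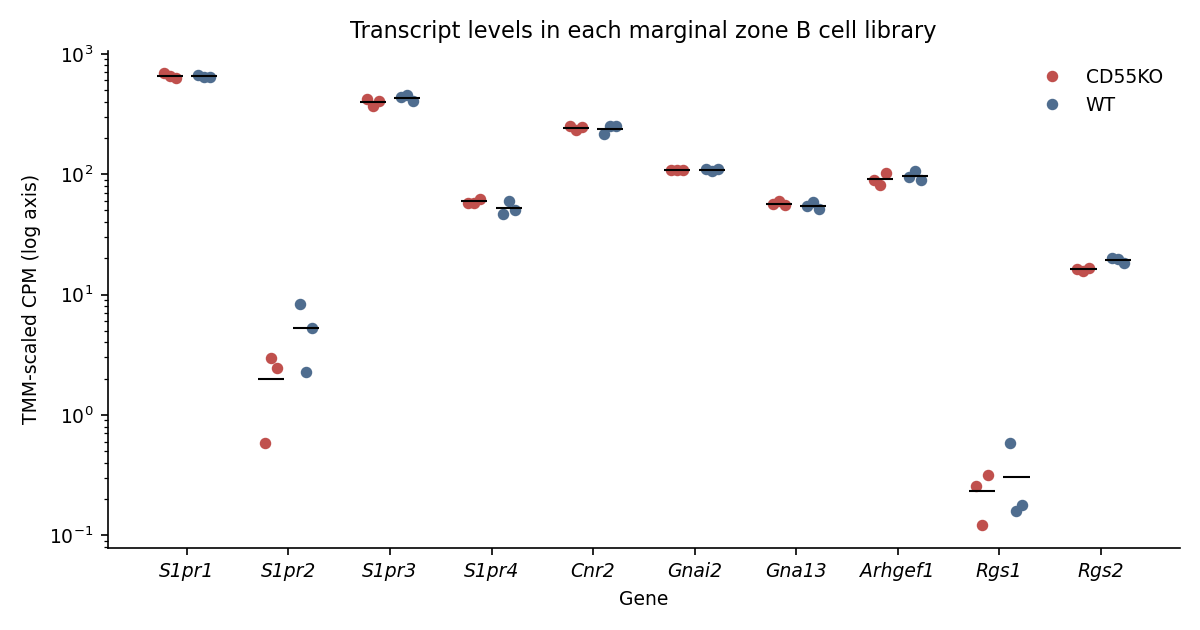
Transcript level of each of the 10 genes in every library, as TMM-scaled CPM (counts per library, scaled to a common total of 1000000) on a log axis. Points are single libraries (3 CD55KO, 3 WT) and bars are group means. S1pr1 spans 635 to 688 CPM in CD55KO and 640 to 665 CPM in WT, and the points of S1pr2 spread from 0.587 to 2.95 CPM in CD55KO and from 2.27 to 8.40 CPM in WT.

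The libraries held 20056111 to 30784090 counts. WT replicate 1, which had the fewest, was the outlying library of a principal component analysis (component 1, with 28.8% of variance), and values without it are given beside the results that it moved most. Cd55, the targeted gene, had 244, 154 and 212 counts in CD55KO replicates 1 to 3 and 2580, 3715 and 3096 counts in WT replicates 1 to 3. Markers of MZ B cells (Cr2, Cd1d1, Cd9 and 7 others) were all detected, with summed levels of 22400 to 24100 CPM in CD55KO and 22300 to 25600 CPM in WT. Among markers of other cells, Ncr1 and Eomes of natural killer cells, Ly6g, Elane and Camp of neutrophils and Tek, Lyve1, Pdgfrb and Col1a1 of vessels and stroma had 0 counts in every library, and a count of 0 leaves room for at most 0.146 CPM at the lowest depth, by counting error alone. The natural killer list summed to 29.9 to 33.8 CPM in CD55KO and 27.3 to 35.9 CPM in WT, most of it from the perforin gene Prf1 (31.7 ± 2.11 CPM in CD55KO and 30.3 ± 4.48 CPM in WT), and the neutrophil list to 0.035 to 0.0405 CPM in CD55KO and 0.0486 to 0.426 CPM in WT. The endothelial and stromal list summed to 183 to 204 CPM in CD55KO and 172 to 177 CPM in WT, most of it from Pecam1 (188 ± 11.7 CPM in CD55KO and 172 ± 2.34 CPM in WT), with the endothelial cadherin gene Cdh5 at 1.75 ± 0.678 CPM in CD55KO and 1.34 ± 0.251 CPM in WT. Summed T cell markers reached 3.20 to 5.92 CPM in CD55KO and 3.30 to 4.69 CPM in WT. Summed macrophage markers reached 24.1 to 26.7 CPM in CD55KO and 16.5 to 24.4 CPM in WT. Erythroid markers varied most, from 36.2 to 2000 CPM in CD55KO and from 106 to 4390 CPM in WT. B-1 cell markers summed to 95.9 to 118 CPM in CD55KO and 75 to 92.9 CPM in WT, without overlap. The largest part was Cd300lf, with a CD55KO mean of 50.4 CPM against 37.4 CPM for WT. Of the 7 tested B-1 markers, 3 were without overlap, namely Cd300lf, Plscr1 and S100a6. Cd5 overlapped, its mean being 2.87 CPM for CD55KO and 2.77 CPM for WT. Log2 fold changes were positive for 5 of these 7 and negative for Zbtb32 (-0.30) and Itgam (-0.19). Follicular B cell markers reached 2370 to 2630 CPM in CD55KO and 2140 to 2410 CPM in WT. Plasma cell markers reached 998 to 1150 CPM in CD55KO and 1100 to 1230 CPM in WT. By edgeR, 0 of 8 follicular, 0 of 7 B-1 and 1 of 7 plasma cell markers passed. It was Xbp1, at 78.5 ± 6.21 CPM in CD55KO cells and 118 ± 14 CPM in WT cells (adjusted p = 0.0047, edgeR). DESeq2 called 1 follicular, 1 B-1 and 1 plasma cell marker, and limma-voom called 0, 0 and 1. In such bulk samples, fewer cells of a type and less RNA per cell cannot be told apart.

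The start regions of S1pr2, Rgs2 and S1pr3 are shown first, since S1pr2 and Rgs2 had the largest negative fold changes and S1pr3 is an abundant receptor gene for contrast. Each runs from 250 bases before to 50 bases after the gene start in RefSeq (GRCm38.p6), 5′ to 3′ on the gene's strand. S1pr2 is at chr9:20976744-20977043 on the minus strand, Rgs2 at chr1:144004100-144004399 on the minus strand, and S1pr3 at chr13:51408368-51408667 on the plus strand. Capitals mark the cAMP response element octamer (TGACGTCA) and the GC box (GGGCGG, or CCGCCC on the other strand).
S1pr2: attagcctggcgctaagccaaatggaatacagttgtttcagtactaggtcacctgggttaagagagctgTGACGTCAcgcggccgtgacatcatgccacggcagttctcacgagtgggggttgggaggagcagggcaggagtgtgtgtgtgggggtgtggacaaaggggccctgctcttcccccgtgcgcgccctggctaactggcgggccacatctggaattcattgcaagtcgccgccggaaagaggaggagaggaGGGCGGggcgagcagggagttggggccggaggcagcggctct
Rgs2: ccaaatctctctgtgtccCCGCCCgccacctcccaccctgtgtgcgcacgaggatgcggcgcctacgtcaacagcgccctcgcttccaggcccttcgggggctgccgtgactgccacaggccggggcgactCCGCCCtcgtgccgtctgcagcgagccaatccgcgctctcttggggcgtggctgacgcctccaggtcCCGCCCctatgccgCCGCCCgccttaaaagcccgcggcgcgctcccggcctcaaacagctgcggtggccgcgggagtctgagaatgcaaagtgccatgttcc
S1pr3: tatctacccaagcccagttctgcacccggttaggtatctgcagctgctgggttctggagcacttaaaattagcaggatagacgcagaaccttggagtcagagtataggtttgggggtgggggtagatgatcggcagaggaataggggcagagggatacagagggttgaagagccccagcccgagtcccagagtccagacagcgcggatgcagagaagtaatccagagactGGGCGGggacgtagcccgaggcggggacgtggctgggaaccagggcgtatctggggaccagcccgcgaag
The octamer occurs 1 time in the S1pr2 window and in neither of the others. It was found, on either strand, in 1.79% of all 32851 windows of this length in the RefSeq table. The GC box occurs 4 times in the Rgs2 window and 1 time each in those of S1pr2 and S1pr3, and it was found in 35.7% of all windows. Of the 10 genes, 7 had an entry, with 9 windows in all, and S1pr2 alone among them held the octamer. Such matches describe letters and are not shown to be bound sites.

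S1pr1 was, per kilobase, the most abundant of the 4 S1P receptor transcripts, and its log2 fold change was the nearest to 0 among them. It lies on chromosome 3 from 115710433 to 115715072 (GRCm38, minus strand) and has a single annotated transcript. S1pr1 had 688, 650 and 635 CPM in CD55KO replicates 1 to 3, against 665, 640 and 645 CPM in WT replicates 1 to 3. The genotypes overlapped, with the highest library being CD55KO replicate 1 and the lowest CD55KO replicate 3. The log2 fold change was 0.02 ± 0.08 (SE), and its adjusted p was 0.99 (edgeR). The 95% interval of the fold ran from 0.897 to 1.14, so that a change larger than this in either direction lay outside it.

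S1pr3, which encodes a receptor that can couple to Gi, Gq and G13 proteins, followed S1pr1 in level per kilobase. It is on chromosome 13 from 51408639 to 51422797 (GRCm38, plus strand). Its levels were 423, 369 and 405 CPM in CD55KO replicates 1 to 3 and 437, 456 and 403 CPM in WT replicates 1 to 3. The ranges overlapped, although the lowest library was a CD55KO one and the 2 highest were WT. CD55KO against WT gave a log2 fold change of -0.12 ± 0.09 (SE; adjusted p = 0.78, edgeR), with a 95% interval of the fold from 0.813 to 1.05. Leaving out CD55KO replicate 2 or WT replicate 2 gave -0.07. The lincRNA gene Gm32834 on the opposite strand shares 45 exonic bases with S1pr3, and the library kit does not mark strand.

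S1pr4 encodes a receptor found mainly on blood and lymphoid cells. It is on chromosome 10 from 81497747 to 81500132 (GRCm38, minus strand). S1pr4 had 58.1, 58.1 and 61.6 CPM in CD55KO, against 46.5, 59.6 and 50.5 CPM in WT, replicates 1 to 3 each. Here 2 WT libraries lay under all CD55KO libraries, while WT replicate 2 lay within their range. On the log2 scale the difference was 0.18 ± 0.09 (SE; unadjusted p = 0.065, adjusted p = 0.62, edgeR), with a fold interval from 0.991 to 1.3. Without WT replicate 2 it was 0.29 (adjusted p = 0.39) and without WT replicate 1 it was 0.11 (adjusted p = 0.85), so that these libraries moved the value by more than 1.5 times.

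S1pr2 was a scarce transcript with a wide spread. The gene is on chromosome 9 from 20962361 to 20976781 (GRCm38, minus strand). Before scaling it had 16, 73 and 70 counts in CD55KO replicates 1 to 3 and 173, 71 and 148 counts in WT replicates 1 to 3. These correspond to 0.587, 2.95 and 2.45 CPM in CD55KO and 8.40, 2.27 and 5.26 CPM in WT. WT replicates 1 and 3 stood above all CD55KO libraries, CD55KO replicate 1 stood below all others, and WT replicate 2 lay between the CD55KO libraries. The log2 fold change was -1.40 ± 0.74 (SE; unadjusted p = 0.12, adjusted p = 0.71, edgeR), and its 95% interval, from -3.30 to 0.51, spans folds from 0.101 to 1.42. Without WT replicate 1 the log2 fold change was -0.91 (adjusted p = 0.83), and without CD55KO replicate 1 it was -0.96 (adjusted p = 0.69). It was -1.78 without CD55KO replicate 2 (adjusted p = 0.82) and -1.77 without WT replicate 2 (unadjusted p = 0.034, adjusted p = 0.62).

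S1pr2 is itself a known germinal centre transcript, and some, but not all, other germinal centre transcripts varied over the same libraries. Summed over 10 germinal centre markers, without S1pr2, the level was 51.8, 60.8 and 51.5 CPM in CD55KO replicates 1 to 3 and 125, 53.1 and 95.2 CPM in WT replicates 1 to 3. WT replicate 2 again lay within the CD55KO range. Of the 10 markers, 1 fell in CD55KO and 9 did not pass. It was Gcsam, a signalling adaptor gene (log2 fold change -1.81 ± 0.36 SE, adjusted p = 0.034, edgeR), which lost its call in all 6 fits without 1 library (adjusted p from 0.0592 to 0.161). Gcsam also lost its call by limma-voom (adjusted p = 0.12) and with the replicate number as a block (0.0978), and kept it by DESeq2 (0.000924). DESeq2 called 2 of the 10 markers, Gcsam and Nuggc (adjusted p = 0.00186), and limma-voom called 0. Rgs13, an RGS gene of germinal centre B cells, is 1 of the 10 markers summed. It had 1.61, 2.02 and 1.96 CPM in CD55KO and 14.4, 1.47 and 8.99 CPM in WT, replicates 1 to 3 each. For Rgs13 the log2 fold change was -2.13 ± 0.90 (SE; adjusted p = 0.63, edgeR), -1.48 without WT replicate 1 (adjusted p = 0.77) and -2.64 without WT replicate 2 (adjusted p = 7.57e-05), so that it was called when that library was left out, as was Nuggc (adjusted p = 0.00687). The part of such cells in the S1pr2 values was not tested.

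**Figure D2:**
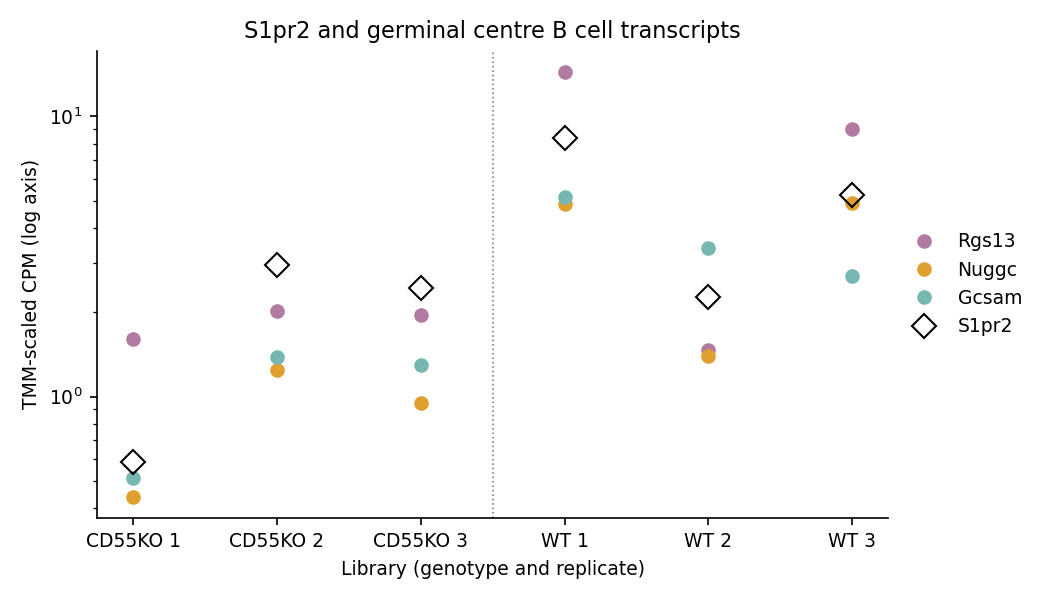
S1pr2 (open diamonds) and 3 germinal centre transcripts (filled circles) in each library, in TMM-scaled CPM on a log axis, CD55KO libraries left of the dotted line and WT libraries right of it. WT replicates 1 and 3 are high for S1pr2, Rgs13 and Nuggc, while CD55KO replicate 1 is the lowest library for S1pr2. Gcsam differs, with 5.15, 3.38 and 2.7 CPM in WT replicates 1 to 3, so WT replicate 2 stands above WT replicate 3. In CD55KO replicates 1 to 3 it has 0.513, 1.38 and 1.3 CPM.

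The receptor genes were then compared per kilobase of annotated exon. Of the summed S1P receptor level per kilobase, S1pr1 made up 65.4 ± 1.22% in CD55KO and 64.2 ± 1.67% in WT (SD, n = 3 libraries each). S1pr3 made up 27.0 ± 1.11% in CD55KO and 29.1 ± 1.19% in WT, S1pr4 7.53 ± 0.445% in CD55KO and 6.57 ± 0.801% in WT, and S1pr2 0.0771 ± 0.0495% in CD55KO and 0.200 ± 0.115% in WT. For S1pr1 the share of single libraries ran from 64.1 to 66.5% in CD55KO and from 62.3 to 65.4% in WT, so the genotypes overlapped. S1pr5, which encodes the receptor of natural killer cells and was not tested for its low counts, had 0 counts in 5 libraries and 0.0639 CPM in WT replicate 2.

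Cnr2 was the third most abundant of the 10 genes per kilobase, and its genotypes overlapped. It is on chromosome 4 from 135895394 to 135920207 (GRCm38, plus strand). Its levels were 253, 232 and 245 CPM in CD55KO replicates 1 to 3 and 214, 253 and 249 CPM in WT replicates 1 to 3. WT replicate 1 was the lowest library, and the other WT libraries lay in the upper part of the CD55KO range. For Cnr2 the log2 fold change was 0.03 ± 0.08 (SE; adjusted p = 0.97, edgeR), with a fold interval from 0.900 to 1.16. Without WT replicate 1 the log2 fold change turned to -0.04. Cnr1, which encodes the other cannabinoid receptor, known mainly from neurons, had 0 counts in all 6 libraries.

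Gnai2, which encodes the alpha subunit Gαi2 that carries most chemoattractant signals in mouse B cells, differed little from library to library. The coefficient of variation of its CPM was 0.3% over CD55KO libraries and 1.7% over WT libraries, against medians over all tested genes of 10.7% for CD55KO and 10.2% for WT. It is on chromosome 9 from 107614125 to 107635367 (GRCm38, minus strand). It had 108, 108 and 108 CPM in CD55KO replicates 1 to 3 and 110, 107 and 110 CPM in WT replicates 1 to 3. All CD55KO libraries lay between the lowest and highest WT libraries. The log2 fold change was -0.01 ± 0.07 (SE; adjusted p = 0.99, edgeR), with a fold interval from 0.898 to 1.09.

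Gna13, which encodes the alpha subunit of G13, which couples to S1PR2, is on chromosome 11 from 109362831 to 109401369 (GRCm38, plus strand). It had 56.1, 59.3 and 55.0 CPM in CD55KO and 54.5, 58.2 and 51.5 CPM in WT, replicates 1 to 3 each. The highest library was a CD55KO one and the lowest a WT one, with the genotypes interleaved between them. Its fitted log2 fold change was 0.05 ± 0.08 (SE; adjusted p = 0.92, edgeR), with a fold interval from 0.923 to 1.17. It was 0.01 without WT replicate 3, 0.02 without CD55KO replicate 2 and 0.10 without WT replicate 2. The antisense gene Gm11696 shares 151 exonic bases with Gna13, and without strand the reads of the pair cannot be told apart there.

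Arhgef1, which encodes the guanine nucleotide exchange factor that G13 activates, is on chromosome 7 from 24902912 to 24926594 (GRCm38, plus strand). It had 89.2, 80.7 and 103 CPM in CD55KO and 94.7, 107 and 90.2 CPM in WT, replicates 1 to 3 each. WT replicate 2 was the highest library and CD55KO replicate 2 the lowest, and CD55KO replicate 3 lay above 2 of the WT libraries. Its fitted log2 fold change was -0.10 ± 0.09 (SE; adjusted p = 0.84, edgeR), with a fold interval from 0.816 to 1.07. Leaving out CD55KO replicate 2 or WT replicate 2 gave -0.02, and leaving out CD55KO replicate 3 gave -0.20 (adjusted p = 0.604). Arhgef1 starts 714 bases past the end of Cd79a on the same strand, a B cell receptor gene at 3590 to 3780 CPM in CD55KO libraries and 3230 to 4090 CPM in WT libraries, and reads running on from Cd79a were not tested.

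**Figure D3:**
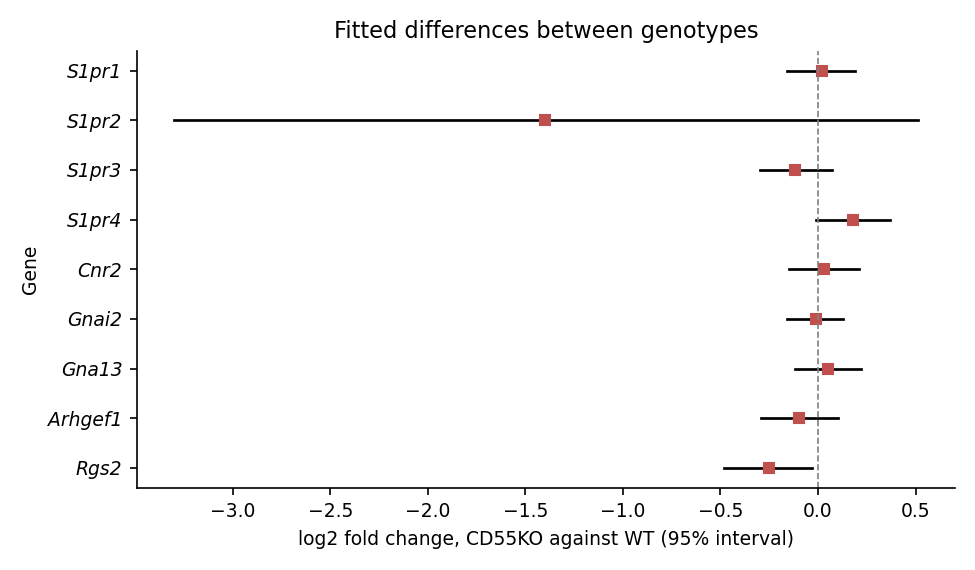
Fitted log2 fold change of CD55KO against WT (squares) with its 95% interval (lines) for the 9 tested genes. The interval of S1pr2 runs from -3.30 to 0.51, that of Rgs2 from -0.48 to -0.03, and those of the other 7 genes all include 0.

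Rgs2 was the 1 tested gene of the 9 whose libraries did not overlap between genotypes, a separation found for 14.1% of all tested genes. RGS2 acts on Gq in particular and, as known from other cells, is induced by activating signals. Rgs2 had 16.3, 15.7 and 16.6 CPM in CD55KO replicates 1 to 3, against 20.2, 19.8 and 18.1 CPM in WT replicates 1 to 3. Every CD55KO library lay below the lowest WT library. The log2 fold change was -0.25 ± 0.11 (SE; unadjusted p = 0.030, adjusted p = 0.51, edgeR), with a fold interval from 0.717 to 0.981. Over the 14 other settings and left-out libraries the log2 fold change stayed between -0.30 and -0.22, with adjusted p from 0.45 to 0.779.

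Rgs2 lies on chromosome 1 from 143999338 to 144004161 (GRCm38, minus strand), 13.5 Mb from Cd55, and Rgs1 lies 13.8 Mb from Cd55 on the same chromosome. Rgs13 (13.7 Mb) and Rgs18 (14.3 Mb), neither called, lie in the same stretch. Rgs18 had 56.5 ± 1.27 CPM in CD55KO cells and 54.6 ± 7.28 CPM in WT cells (SD, n = 3; adjusted p = 0.94, edgeR). The 5 genes whose log2 CPM went most closely with that of Rgs2 over the 6 libraries, among 9204 others with a mean of at least 5 CPM, were Ubxn4 (Pearson r = 0.993), Ap2a1 (0.982), Cnn3 (0.982), Fam111a (0.980) and Bcar3 (0.979), and none of the 5 was called. These values describe 6 libraries that share preparation and differ in depth.

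Rgs1, whose product dampens chemokine receptor signals in B cells and which rises on activation, was barely detected in these cells. It had 7, 3 and 9 counts in CD55KO replicates 1 to 3 and 12, 5 and 5 counts in WT replicates 1 to 3, or 0.257, 0.121 and 0.315 CPM in CD55KO and 0.583, 0.160 and 0.178 CPM in WT. The genotypes overlapped, WT replicate 1 was the highest library, and the other WT libraries lay within the CD55KO range. It fell below the count filter, and in the fit without a filter its log2 fold change was -0.34 ± 0.82 (SE; adjusted p = 0.95, edgeR). The 95% interval of this log2 fold change ran from -1.95 to 1.26, and a difference of Rgs1 within it was not detectable at this depth. Immediate early genes, which respond to activation and to tissue handling, summed to 982 to 1110 CPM in CD55KO and 946 to 1050 CPM in WT, and 0 of 18 tested passed by edgeR, DESeq2 or limma-voom (3 with an unadjusted p under 0.05). The sign of the log2 fold change was positive for 16 of the 18 and negative for 2, and the median was 0.12. Fosb, a gene of the AP-1 family, had 7.26, 6.84 and 5.25 CPM in CD55KO and 3.64, 3.93 and 3.77 CPM in WT, replicates 1 to 3 each, without overlap (log2 fold change 0.77 ± 0.19 SE, unadjusted p = 0.001, adjusted p = 0.13, edgeR). Its relative Fos had 8.58, 9.43 and 3.33 CPM in CD55KO and 3.35, 3.42 and 3.84 CPM in WT, replicates 1 to 3 each, with CD55KO replicate 3 below all WT libraries (log2 fold change 1.00 ± 0.34 SE, adjusted p = 0.41, edgeR). Without CD55KO replicate 3 it was 1.34 for Fos (adjusted p = 0.00565), and without a count filter both genes were called (adjusted p = 0.035 for Fosb and 0.000609 for Fos, edgeR).

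Per kilobase of exon the 10 genes kept 1 order in both genotypes, with S1pr1 first, then S1pr3, Cnr2, Gnai2, S1pr4, Arhgef1, Gna13, Rgs2, S1pr2 and Rgs1. S1pr1 had 216 ± 9.09 CPM per kilobase in CD55KO and 213 ± 4.22 in WT (SD, n = 3 each), and S1pr3 89.3 ± 6.10 in CD55KO and 96.8 ± 5.98 in WT. Cnr2 had 61.1 ± 2.62 CPM per kilobase in CD55KO and 59.9 ± 5.40 in WT. For every pair of neighbours in this order other than S1pr2 and Rgs1, the lowest of the 6 libraries of the higher gene lay above the highest of the lower gene. S1pr2 at 0.0736 to 1.05 CPM per kilobase and Rgs1 at 0.0175 to 0.0839 overlapped. With the longest transcript as the length the order was the same in CD55KO, while in WT Arhgef1 (22.9 ± 2.06 CPM per kilobase) stood above S1pr4 (21.9 ± 2.80).

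Among the alpha subunits, Gnai3 stood level with Gnai2 per kilobase of annotated exon. Gnai3, which encodes Gαi3, had 30.6 ± 2.39 CPM per kilobase in CD55KO and 30.7 ± 1.55 in WT, against 28.6 ± 0.0943 in CD55KO and 28.9 ± 0.477 in WT for Gnai2, and their ranges overlapped. This rests on the length used, since with the longest transcript Gnai2 had 48.8 ± 0.161 CPM per kilobase in CD55KO and 49.3 ± 0.814 in WT, above Gnai3 at 30.6 ± 2.39 in CD55KO and 30.7 ± 1.55 in WT. The third gene of this class, Gnai1, had 0 counts in every library. Gna12, the close relative of Gna13, had 0.985 ± 0.303 CPM per kilobase in CD55KO and 1.24 ± 0.238 in WT, below the 8.84 ± 0.348 in CD55KO and 8.53 ± 0.523 in WT of Gna13. Of 20 tested genes in the list of other G protein subunits and their chaperones, 0 passed by edgeR, DESeq2 or limma-voom, 3 had an unadjusted p under 0.05, and the median log2 fold change was 0.00. Gnb4, a beta subunit gene, had 0.495 ± 0.0433 CPM in CD55KO cells and 1.26 ± 0.502 CPM in WT cells (adjusted p = 0.32, edgeR), and Gnb2 had 23.2 ± 2.11 CPM in CD55KO cells and 28.8 ± 5.53 CPM in WT cells (adjusted p = 0.50). Without WT replicate 1 the log2 fold change was -1.03 for Gnb4, against -1.32 with it, and -0.19 for Gnb2, against -0.31 with it.

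Per kilobase, other RGS genes stood above Rgs1 and Rgs2. Rgs19 had 83.8 ± 4.37 CPM per kilobase in CD55KO and 85.0 ± 7.15 in WT, Rgs10 68.1 ± 10.5 in CD55KO and 70.9 ± 3.44 in WT, and Rgs18 27.8 ± 0.627 in CD55KO and 26.9 ± 3.58 in WT. Rgs14 had 13.6 ± 1.09 CPM per kilobase in CD55KO and 13.7 ± 1.10 in WT, and Rgs2 came after it at 4.47 ± 0.131 in CD55KO and 5.33 ± 0.304 in WT. Of 12 tested genes in the list of other RGS and related genes, 0 passed by edgeR, DESeq2 or limma-voom, and the median log2 fold change was -0.01. The smallest p-values belonged to Gpsm2, with 0.346 ± 0.154 CPM in CD55KO cells and 1.34 ± 1.00 CPM in WT cells (unadjusted p = 0.015, adjusted p = 0.41, edgeR), and to Rgs13 (adjusted p = 0.63). The log2 fold change of Gpsm2 was -1.91 with all libraries, -1.34 without WT replicate 1 (adjusted p = 0.70) and -2.42 without WT replicate 2 (adjusted p = 0.0614), and without a count filter the gene was called (adjusted p = 0.0173, edgeR). Gpsm2 was highest in WT replicates 1 and 3, the libraries with the highest germinal centre marker sums. Rgs13 was also highest there, but it is itself part of those sums. It made up 14.4 of 125 CPM in WT replicate 1 and 8.99 of 95.2 CPM in WT replicate 3. A germinal centre source of these values was not tested.

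**Figure D4:**
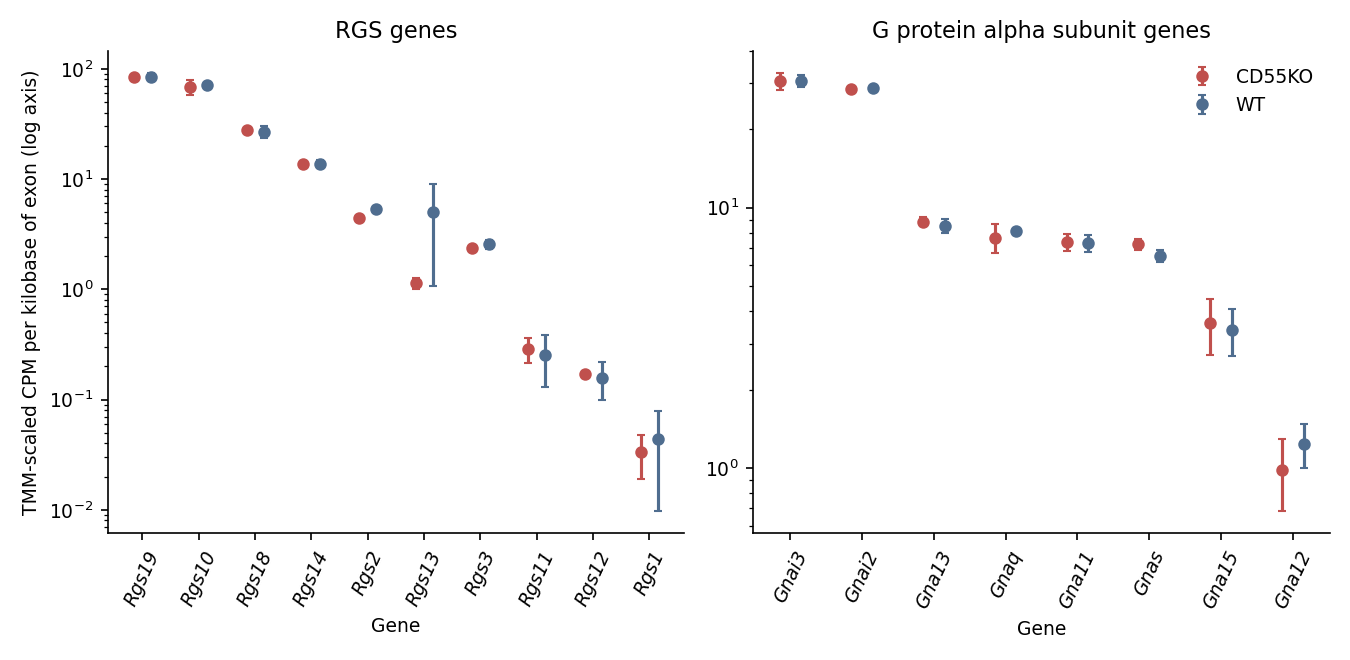
Mean level per kilobase of exon of RGS genes (left panel) and G protein alpha subunit genes (right panel), TMM-scaled, on log axes, with CD55KO left of WT for each gene and bars for 1 SD over 3 libraries. Rgs19 and Rgs10 lie highest among RGS genes, and Rgs13 has the widest bar, in WT.

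The genes that make, break down and export S1P did not pass in either direction. Of 17 tested, 10 had positive and 7 negative log2 fold changes, 2 had an unadjusted p under 0.05, and DESeq2 and limma-voom also called 0. Sphk2, an S1P-making kinase gene, had 53.5 ± 5.90 CPM in CD55KO cells and 55.4 ± 2.47 CPM in WT cells, and Sgpl1, the lyase that degrades S1P irreversibly, had 60.0 ± 3.55 CPM in CD55KO cells and 61.1 ± 4.97 CPM in WT cells. Plpp1, a lipid phosphatase gene, had 0.289 ± 0.135 CPM in CD55KO cells and 0.762 ± 0.183 CPM in WT cells (log2 fold change -1.38 ± 0.53 SE, adjusted p = 0.44, edgeR). Asah1, the acid ceramidase gene, had 57.5 ± 4.0 CPM in CD55KO cells and 49.7 ± 4.75 CPM in WT cells (adjusted p = 0.52). Mfsd2b, the S1P exporter of red cells and platelets, had 0.183, 0.445 and 0.105 CPM in CD55KO and 1.21, 0.415 and 0.284 CPM in WT, replicates 1 to 3 each, and was highest in WT replicate 1, the library with the highest erythroid sum (4390 CPM). The erythroid sums were 2000, 1600 and 36.2 CPM in CD55KO and 4390, 359 and 106 CPM in WT, replicates 1 to 3 each. CD55KO replicate 2 had the second highest Mfsd2b level, and CD55KO replicate 3 was lowest in both. CD55KO replicate 1 had less Mfsd2b than WT replicates 2 and 3. These levels are low, and 0.105 CPM in CD55KO replicate 3 corresponds to 3 counts. The log2 fold change of Mfsd2b was -1.34 ± 0.68 (SE; adjusted p = 0.62, edgeR) and -0.54 without WT replicate 1 (adjusted p = 0.93), and the part of red cell RNA in these values was not tested. Sphk2, Sgpl1 and Mfsd2b were chosen after their values were seen.

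Regulators of S1PR1 were likewise uncalled. Cd69, whose product binds S1PR1 and removes it from the surface, had 121 ± 13.9 CPM in CD55KO cells and 112 ± 10.2 CPM in WT cells (adjusted p = 0.81, edgeR). Klf2, the transcription factor that drives S1pr1 in T cells, had 6.11 ± 1.61 CPM in CD55KO cells and 5.85 ± 0.762 CPM in WT cells (adjusted p = 0.98). Grk2, a kinase that desensitizes S1PR1, had 108 ± 1.89 CPM in CD55KO cells and 109 ± 2.5 CPM in WT cells (adjusted p = 0.99). These 3 were chosen after their values were seen. By the naming rule, Grk6 had 41.6 ± 1.5 CPM in CD55KO cells and 36.5 ± 1.92 CPM in WT cells (adjusted p = 0.56), and Foxo1 had 61.4 ± 3.61 CPM in CD55KO cells and 54.4 ± 4.07 CPM in WT cells (adjusted p = 0.58). Of 14 tested genes in this list 0 passed by edgeR, DESeq2 or limma-voom, 1 had an unadjusted p under 0.05, and the median log2 fold change was 0.03.

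Further down, 0 of 22 tested second messenger genes passed by edgeR, DESeq2 or limma-voom, with a median log2 fold change of 0.00. By unadjusted p, 7 of the 22 lay under 0.05 (edgeR), against 8.60% of all tested genes. For 6 of the 22 the libraries did not overlap between genotypes, against 14.1% of all tested genes. Pik3cg, the phosphoinositide 3-kinase gene activated by G protein beta-gamma subunits, had 36.6 ± 2.63 CPM in CD55KO cells and 29.8 ± 0.922 CPM in WT cells (log2 fold change 0.30 ± 0.09 SE, adjusted p = 0.26, edgeR). Prkar1a, a regulatory subunit gene of protein kinase A, had 351 ± 12 CPM in CD55KO cells and 410 ± 11.3 CPM in WT cells (adjusted p = 0.39).

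Endocannabinoid enzymes and related receptors held 10 tested genes, of which 0 passed by edgeR, DESeq2 or limma-voom, 1 had an unadjusted p under 0.05, and the median log2 fold change was -0.04. Faah, which encodes the hydrolase that breaks down anandamide, had 20.7, 19.1 and 19.3 CPM in CD55KO, against 11.9, 15.7 and 16.5 CPM in WT, replicates 1 to 3 each. The genotypes did not overlap, and WT replicate 1 was the lowest library (log2 fold change 0.42 ± 0.13 SE, unadjusted p = 0.0046, adjusted p = 0.27, edgeR). Without WT replicate 1 it was 0.29 (adjusted p = 0.58). Gde1, a phosphodiesterase gene, had 20.5 ± 2.31 CPM in CD55KO cells and 22.8 ± 2.06 CPM in WT cells (adjusted p = 0.77).

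Among 22 other tested positioning receptors, 1 rose in CD55KO, 0 fell and 21 did not pass. It was Cxcr4, the receptor for CXCL12, with 8.40, 17.1 and 13.8 CPM in CD55KO and 3.30, 4.89 and 3.8 CPM in WT, replicates 1 to 3 each (log2 fold change 1.70 ± 0.25 SE, adjusted p = 0.0092, edgeR). The call was lost when CD55KO replicate 3 (adjusted p = 0.0604), WT replicate 1 (0.0716) or WT replicate 3 (0.130) was left out. Cxcr4, like Cnr2, S1pr1 and S1pr3, signals through Gi proteins, and per kilobase it lay below them, at 7.23 ± 2.42 CPM per kilobase in CD55KO and 2.21 ± 0.447 in WT. Cxcr5, the CXCL13 receptor that opposes S1PR1, had 221 ± 14.3 CPM per kilobase in CD55KO and 220 ± 32.6 in WT, overlapping S1pr1 in range per kilobase of annotated exon; it was picked with its values known. The median log2 fold change of the list was 0.06. By unadjusted p, 6 of the 22, Cxcr4 among them, lay under 0.05, against 8.60% of all tested genes.

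**Figure D5:**
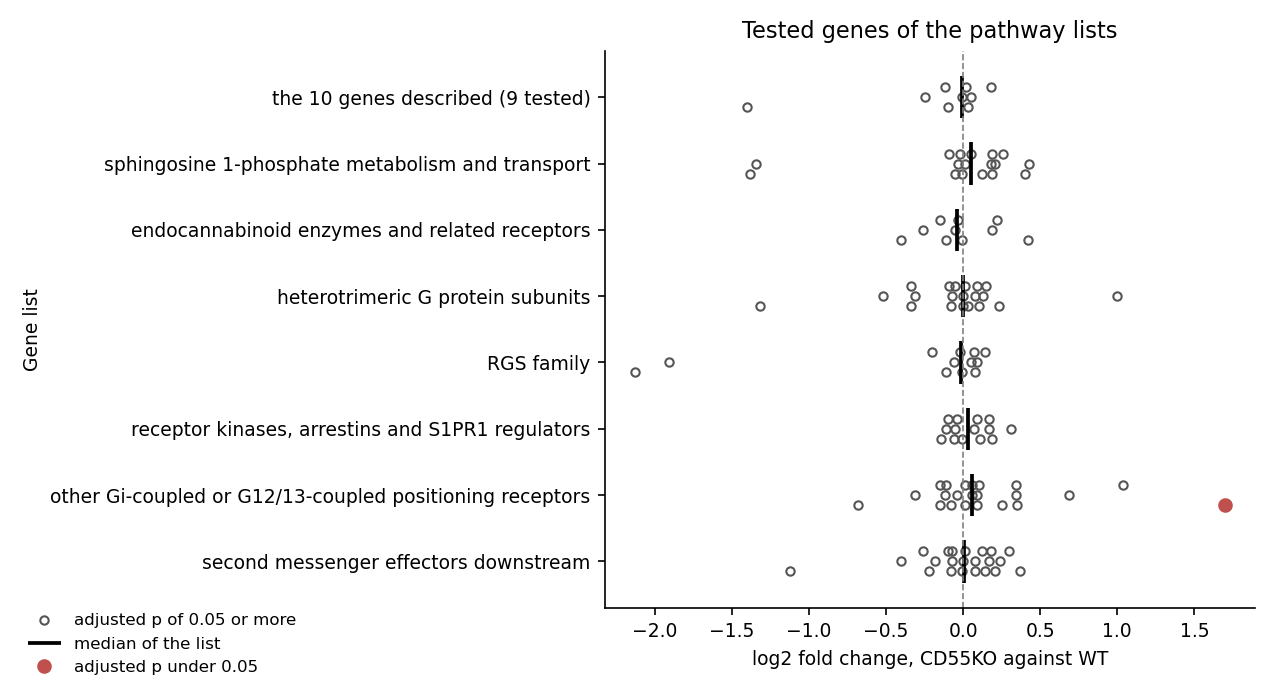
Log2 fold change of CD55KO against WT for each tested gene of the 10 genes described and of 7 pathway lists, with list medians as black bars and called genes filled. Cxcr4, at 1.70, is the 1 filled point, and list medians lie between -0.04 and 0.06.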

How the data were processed

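Per the labels' protocols, an RNeasy micro kit was used to extract RNA and the SMARTer Ultra Low kit to prepare libraries. The SMARTer kit does not record strand. The deposited values are estimated counts for each gene, which the authors left unscaled. Tools listed by the submitters' processing notes are DRAGEN, edgeR and limma, with no roles. No source used here names the authors' genome build. The 287 repeated rows of the table, identical to their first copies, were removed, and counts were rounded to whole numbers.

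Genes passing edgeR's filterByExpr (minimum count 10, minimum total 15) were TMM-scaled and tested with the robust quasi-likelihood F-test in edgeR 4.0.16 (R 4.3.3), genotype alone in the model, with 3 libraries per genotype. P-values were adjusted by Benjamini-Hochberg over all tested genes. SE is the size of the log2 fold change over the root of F, fold intervals are 95%, and group values are means with SD.

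Gene IDs were looked up in GENCODE M21 (GRCm38) for positions and exon lengths. It holds 99.5% of the IDs, 98.9% of them with as many transcripts as in the table. Totals of 20056111 to 30784090 counts limit precision, and intervals and floors (3 counts) cover counting error only. Libraries of 1 genotype differed beyond sampling noise, with chi-square values of 13.2 to 33.1 per degree of freedom.

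The 10 genes, the lists and the tests were chosen with earlier results of these data known. Named beside the 10 genes are, per pathway list, up to 4 genes past the threshold, else the 2 with the smallest p, and the 5 genes most correlated with the gene of the 10 with the smallest p. A further list and a germinal centre marker are not reported here. Other genes were picked with their values known, as stated beside them, or stand as markers, relatives or chromosome 1 neighbours. Alternatives were a replicate block, other scalings (DESeq2 size factors, library totals), DESeq2 1.42.0, limma-voom (limma 3.58.1), no filter, 50 counts in 3 libraries, no immunoglobulin genes, longest transcripts as length, and leaving out each library.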

Additional observations from a re-analysis of the deposited data

How the results depend on the processing

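No setting and no left-out library called any of the 9 tested genes of the S1P and G protein group, by edgeR, DESeq2 or limma-voom. Fold changes kept their direction except those of S1pr1 and Cnr2. Leaving out 1 library gave S1pr1 log2 fold changes from -0.016 (without CD55KO replicate 1) to 0.039 (without CD55KO replicate 3), and Cnr2 from -0.044 (without WT replicate 1) to 0.072 (without WT replicate 2). Over all genes, the number called higher was 19, and it was 49 with DESeq2 and 104 without a count filter, while leaving out 1 library gave 12 (without WT replicate 3) to 20. The number called lower was 36, and it was 70 with DESeq2 and 128 without a count filter, while leaving out 1 library gave 24 to 35. The cause was not tested. The replicate number as a block gave 21 higher and 43 lower genes and called none of the 9, with a log2 fold change of -0.25 for Rgs2. The labels do not say that equal numbers pair libraries, and the deviations of same-numbered libraries from their group means correlated at 0.07, -0.12 and 0.17, so not every library correlated best with its own number. Longest transcripts as length moved 7 of 20 mean levels by more than 1 SD. The levels of S1pr1, S1pr3 and S1pr4, among these 20, could not move, since each has a single annotated transcript. Low counts limit S1pr2 and Rgs1.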
